A study of Cricetiscus sungorus with 12 samples.

Results

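Thermosensitive TRP channels were described in hypothalamic mRNA-Seq data of Djungarian hamsters. TRP channels are cation channels of the cell membrane, and those named here open, or open more readily, when temperature, chemical agonists or intracellular messengers change. The set held 10 genes of the 17191 mouse GeneIDs in the data, given as a list of GeneIDs: Trpm2 (GeneID 28240), Trpm3 (226025), Trpm4 (68667), Trpm8 (171382), Trpv1 (193034), Trpv2 (22368), Trpv3 (246788), Trpv4 (63873), Trpc5 (22067) and Trpa1 (277328). The list used no measured value as a rule, but earlier results of these data were known when it was chosen. Names and GeneIDs are those of the mouse, because hamster transcripts were assigned to the mouse protein they matched best.

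Channels of this family convert temperature into membrane current in sensory neurons, and some of them are also present in the brain. In the preoptic part of the hypothalamus, warm-sensitive neurons help to set body temperature, and TRPM2 is known to contribute to the warmth response of such neurons. TRPM8 and TRPC5 open on cooling and TRPV1, TRPV2, TRPV3, TRPV4, TRPM2 and TRPM3 on warming, whereas TRPA1 is foremost a receptor for irritants and TRPM4 a channel gated by intracellular calcium and made more active by warmth.

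Hypothalami of 12 adult hamsters were sequenced as whole tissue, 1 library per hamster and 4 hamsters per group, all sampled at about ZT 4 after perfusion with saline. LP-NT hamsters stayed in long photoperiod with 16 h of light and were normothermic, SP-NT hamsters were acclimated to short photoperiod with 8 h of light and were normothermic, and SP-HT hamsters had the same short photoperiod and were hypothermic in spontaneous torpor. All SP hamsters carried an implanted transmitter and had been in torpor before the day of sampling, while LP hamsters carried no transmitter, so that acclimation, implantation and earlier torpor cannot be told apart in SP-NT against LP-NT. By their labels, LP-NT and SP-NT each held 2 males and 2 females, and SP-HT held 3 males and 1 female. SP-HT therefore differed from both other groups in the ratio of the sexes as well.

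Counts per library ranged from 20204962 to 24186884, with medians of 22089191 (LP-NT), 23941450 (SP-NT) and 21832558 (SP-HT). The shallowest SP-NT library, at 22860132 counts, was below the deepest SP-HT library, at 23018126. Of the records whose names could be attached, Avp and Pomc, the vasopressin and proopiomelanocortin precursors of hypothalamic neurons, were present in every hamster, Avp at 81.6 to 314 CPM, a count scaled to the size of its library, and Pomc at 10.7 to 51.7 CPM. LP-NT 01 stood apart from the other libraries. It was the lowest of the 12 hamsters in 23.9% and the highest in 25.3% of the 11853 genes with a mean of at least 100 counts, against 2.56% to 9.56% and 3.23% to 10.7% in the other hamsters. SP-NT 19, labelled male, lacked 3 records that separated the other labelled males from the females, so that its label is in doubt. These records had at most 5 counts in the 5 females and 163 to 1699 counts in the other 6 males. They had at most 1 count in SP-NT 19. The records were sought in these same data by a rule that let 1 male lack them, and their genes were not identified. The fits were therefore repeated without LP-NT 01 and without SP-NT 19, and values that moved by over 1.5 times or turned direction are given beside the result. Because whole tissue was sequenced, fewer cells of a type and less RNA per cell cannot be told apart in any value below.

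The hypothalamus held mRNA of most of these channels, at very different levels. At least 1 count was present in all 12 hamsters for 9 of the 10 genes, and 7 genes had a mean of at least 10 counts per hamster. The 10 genes together had 63036 counts over all hamsters, of which Trpm3 alone held 43.5%. Trpm3, Trpc5, Trpm2, Trpm4 and Trpv2 had a mean of at least 100 counts, whereas the heat- and warmth-sensing channels Trpv1 and Trpv3 and the irritant receptor Trpa1 stayed below a mean of 10.

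Levels of different genes were compared per length, in TPM, which divides counts by transcript length and scales them to the same total in each hamster. The heat and neurosteroid channel Trpm3 led with a median of 64.8 TPM over the 12 hamsters and a range from 29.6 to 72.7 TPM. Its lowest hamster was still above the highest hamster of every other member, and in CPM 85.9% of all records in the data were lower than Trpm3. The calcium-activated channel Trpm4, at a median of 22.8 TPM (range 17.2 to 28.7), and the ADP-ribose receptor Trpm2, at 21.0 TPM (range 16.7 to 28.7), followed. Trpm4 was above Trpm2 in 8 of 12 hamsters and their ranges overlapped, so their order was not resolved.

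The cold-sensitive channel Trpc5 had a median of 13.5 TPM (range 6.96 to 15.4), below Trpm2 in all 12 hamsters with no overlap. Trpv2, a channel opened by strong heat and by stretch, followed at 10.9 TPM (range 8.63 to 14.9). Trpc5 was above Trpv2 in 10 of 12 hamsters and the ranges overlapped. A gap without overlap lay between Trpv2 and Trpv4, the warm and osmotic channel, which had 3.60 TPM (range 1.79 to 8.22).

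Trpm8, the cold and menthol receptor, had a median of 2.00 TPM (range 1.03 to 3.72) and was below Trpv4 in 11 of 12 hamsters. In counts the order was the reverse, with a mean of 58.4 per hamster for Trpm8 and 26.1 for Trpv4. Their order in TPM rests on the transcript length used, on average 3627 bases for Trpm8 and 802 bases for Trpv4. Whether these lengths are those of full transcripts was not tested. Trpa1, at 1.36 TPM, Trpv1, the capsaicin receptor, at 0.785 TPM, and Trpv3, at 0.655 TPM, closed the order. Neighbours in this lower stretch all overlapped. Trpa1 was above Trpv1 in 6 of 12 hamsters, and Trpv1 above Trpv3 also in 6 of 12, so that these 3 genes had no order beyond their spread.

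TPM moved with the effective length assigned to the record, most widely in the scarce members. This length is an average over the assembled transcripts of the record and was estimated anew for each hamster. The abundant Trpm2 moved with it too, with 26.15 TPM at 3716 bases in LP-NT 05 and 17.8 TPM at 5554 bases in SP-HT 10. For Trpc5, a record of 4 transcripts, this length ran from 8388 to 8862 bases. For Trpv3, also of 4 transcripts, it ran from 206 to 3403 bases, for Trpv1 from 37.7 to 921 bases, for Trpa1 from 32.8 to 483 bases and for Trpv4 from 402 to 1425 bases. SP-NT 36 and SP-NT 38, in which the length of Trpv3 was 262 and 206 bases, had 3.98 and 4.40 TPM, while the other 10 hamsters had 0.22 to 0.99 TPM. The counts of Trpv3 in this pair of hamsters were 9 and 8, inside the range of 6 to 14 over all hamsters. The groups were compared on counts and CPM, where length does not enter.

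**Figure D1:**
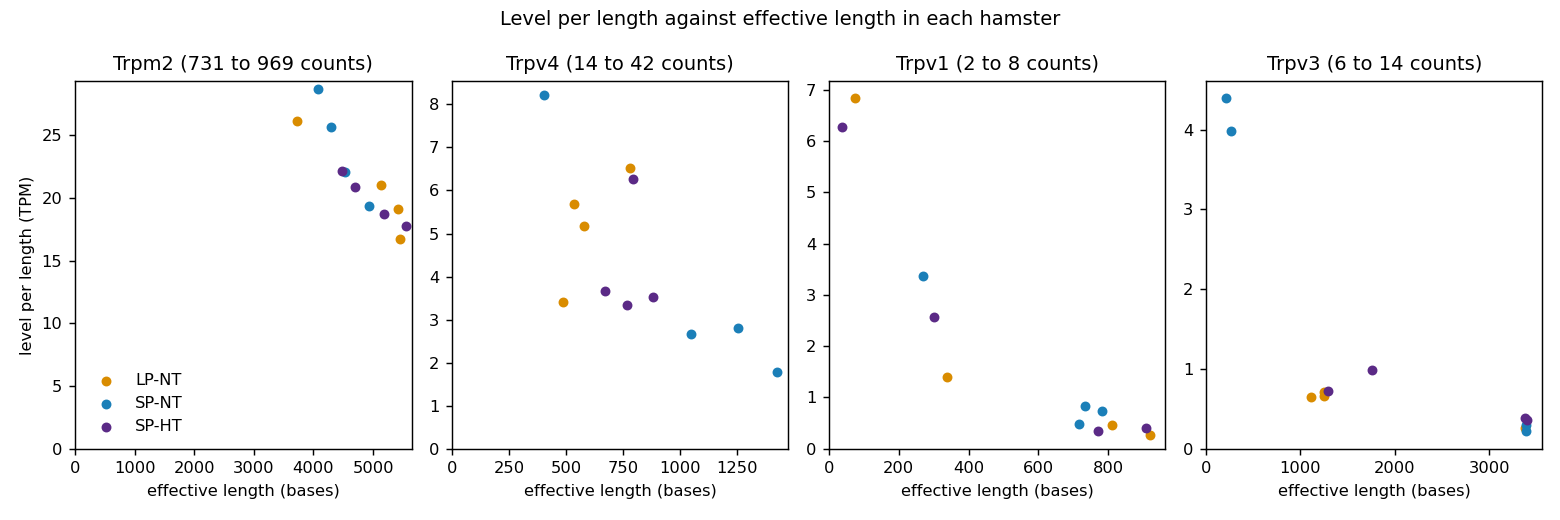
Level in TPM against effective length in bases, each on a linear axis from 0, of Trpm2, Trpv4, Trpv1 and Trpv3, 1 point per hamster and coloured by group. Trpv3 reached 3.98 and 4.40 TPM in the hamsters with a length of 262 and 206 bases. Trpm2 ran from 16.7 to 28.7 TPM, with 17.8 TPM at its greatest length of 5554 bases and 26.15 TPM at its shortest of 3716 bases.

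Measured against counting error, the members differed in how much they varied between hamsters. The coefficient of variation of CPM over the 12 hamsters was 18.5% for Trpm3, where counting alone gives 2.09%, and 17.1% for Trpc5, where counting gives 3.29%. Trpm2 was the steadiest of the members in CPM, at 5.93% with 3.47% from counting, and Trpm4 and Trpv2 varied by 9.50% and 11.1%. LP-NT 01 carried much of this difference. Without it the coefficient of variation was 10.5% for Trpm3, 10.0% for Trpc5, 8.66% for Trpv2, 7.92% for Trpm4 and 5.76% for Trpm2. Trpm8 and Trpv4 varied by 27.5% and 31.0%, with 13.1% and 19.6% from counting. For Trpv1 and Trpv3 the spread between hamsters, 44.4% and 29.8%, was below the 50.5% and 34.6% that counting alone gives.

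**Figure D2:**
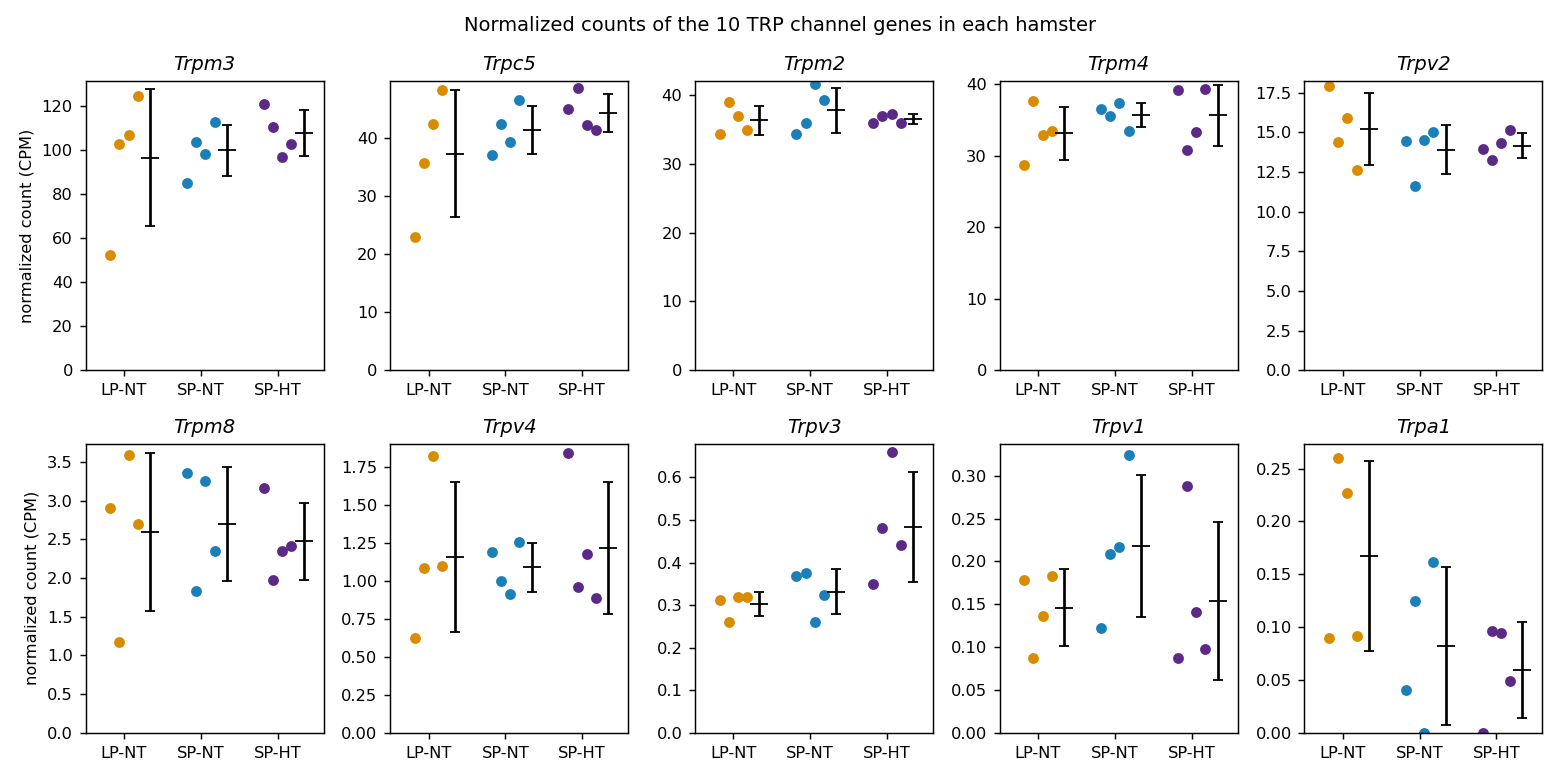
Normalised read counts in CPM of the 10 channels in LP-NT, SP-NT and SP-HT, with 1 point per hamster and the mean and SD of each group of 4. LP-NT 01 is the lowest point of Trpm3, at 52.3 CPM, and of Trpc5, at 22.9 CPM, and the groups of these genes overlap.

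The photoperiodic comparison (SP-NT against LP-NT) asked whether acclimation to short days was accompanied by a different level of these channels in normothermic hamsters. Trpm2, the warmth sensor of preoptic neurons, had 770, 899, 813 and 766 counts in LP-NT and 838, 862, 961 and 969 counts in SP-NT. Its groups overlapped, at 36.3 ± 2.10 CPM in LP-NT and 37.8 ± 3.31 CPM in SP-NT (SD, n = 4 each). The log2(FC) was 0.05 with a 95% interval from -0.12 to 0.22, the upper bound being a 1.16-fold higher level.

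Trpm3, which opens on heat and on the neurosteroid pregnenolone sulfate, had 52.3, 102.9, 107.0 and 124.5 CPM in LP-NT. In SP-NT it had 85.2, 103.7, 98.3 and 113.0 CPM. All SP-NT hamsters lay between the lowest and the highest LP-NT hamster. The log2(FC) was 0.04 (95% interval -0.42 to 0.51), and without LP-NT 01 it was -0.16 (95% interval -0.38 to 0.05), so that the interval narrowed and the direction turned when this hamster was left out.

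Trpc5, the cold-sensitive member of the canonical subfamily, showed the same low library. It had 22.9, 35.6, 42.5 and 48.3 CPM in LP-NT and 37.0, 42.4, 39.4 and 46.6 CPM in SP-NT. Its log2(FC) was 0.14 (95% interval -0.27 to 0.55), and -0.03 (95% interval -0.28 to 0.21) without LP-NT 01. Of the remaining well-counted members, Trpm4 had 33.2 ± 3.71 CPM in LP-NT and 35.8 ± 1.67 CPM in SP-NT (log2(FC) 0.10, 95% interval -0.09 to 0.29), and Trpv2 had 15.2 ± 2.26 and 13.9 ± 1.55 CPM (SD, n = 4 each; log2(FC) -0.14, 95% interval -0.42 to 0.14). Without LP-NT 01 these were 0.04 (95% interval -0.12 to 0.20) for Trpm4 and -0.05 (95% interval -0.31 to 0.22) for Trpv2, both nearer to 0.

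The less abundant members overlapped between photoperiods as well. The cold receptor Trpm8 had 65, 27, 79 and 59 counts in LP-NT and 82, 44, 75 and 58 counts in SP-NT, a log2(FC) of 0.05 with a wide 95% interval from -0.65 to 0.76. For Trpv4 the counts were 14, 25, 40 and 24 in LP-NT and 29, 24, 21 and 31 in SP-NT. Its log2(FC) was -0.09 (95% interval -0.76 to 0.58), and -0.29 (95% interval -0.87 to 0.29) without LP-NT 01, which had its lowest count. Trpv3, the warmth receptor of skin, had 7, 6, 7 and 7 counts in LP-NT and 9, 9, 6 and 8 counts in SP-NT, with a log2(FC) of 0.13 (95% interval -0.54 to 0.80). In DESeq2 with effective lengths the log2(FC) of Trpv3 was 1.76 (DESeq2 adjusted p = 0.982). Trpa1 had a fitted log2(FC) of -1.02, with a 95% interval from -2.69 to 0.64 that spans both directions.

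Both doubtful libraries moved further values of the photoperiodic comparison while every interval kept including 0. Leaving out LP-NT 01 gave a log2(FC) of 0.03 for Trpm2 and 0.12 for Trpm8. Leaving out SP-NT 19 gave 0.09 for Trpm2, 0.11 for Trpm3 and -0.14 for Trpv4. Trpm8 turned direction, to -0.07 (95% interval -0.86 to 0.72), and Trpv3 became 0.07.

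None of the 10 channels passed the threshold of 0.05 for photoperiod in the quasi-likelihood test of edgeR, adjusted after Benjamini-Hochberg over 16199 genes, and adjusted p ranged from 0.913 to 0.982. The share of all tested genes past this threshold was 0.0370%, so that 0 of 10 is close to this background. Groups without any overlap were found in 3.48% of all genes and in 0 members. At an unadjusted p under 0.05 the members counted 0 too, where 4.84% of all genes passed. DESeq2 and limma-voom also called 0 members, though DESeq2 with default settings gave no adjusted p for Trpa1. Of the 10 members, 7 had a log2(FC) above 0 and 3 below, with a median of 0.05, beside a median of -0.00243 over all genes. The 95% interval lay within a 2-fold change in either direction for 8 members, and not for Trpv1 and Trpa1. For Trpv3 this bound is weak. It had 27 counts in all of LP-NT and 32 in SP-NT, and its spread between hamsters was below that of counting alone. The standard error of its log2(FC) was 0.30 in edgeR and 0.54 with DESeq2 default settings. Without LP-NT 01, and likewise without SP-NT 19, 0 members passed.

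The torpor comparison (SP-HT against SP-NT) asked whether the level of these channels differed between hypothermic and normothermic hamsters of the same photoperiod. Positive values are higher in the hamsters labelled SP-HT. For the records whose names could be attached, the torpor values in the study's own tables carry the opposite sign. The direction of every torpor value given here therefore rests on the sample labels alone, and which orientation is right was not tested. Trpm2 had 36.0, 36.9, 37.3 and 35.9 CPM in SP-HT, all within the SP-NT range from 34.3 to 41.7 CPM. Its log2(FC) was -0.05 (95% interval -0.20 to 0.10), the narrowest interval among the members in this comparison.

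Trpm3 had 120.9, 110.6, 96.9 and 102.6 CPM in SP-HT, with a mean of 107.8 ± 10.4 CPM, against 100.1 ± 11.6 CPM in SP-NT (SD, n = 4 each). Trpc5 had 45.0, 48.5, 42.2 and 41.4 CPM in SP-HT, with a mean of 44.3 ± 3.21 CPM, against 41.3 ± 4.15 CPM in SP-NT (SD, n = 4 each). Both channels overlapped between the groups. The log2(FC) was 0.11 (95% interval -0.09 to 0.31) for Trpm3 and 0.10 (95% interval -0.08 to 0.28) for Trpc5. Without SP-NT 19, the hamster with the lowest level of both channels in its group, these were 0.04 (95% interval -0.14 to 0.22) and 0.06 (95% interval -0.13 to 0.24). Leaving out each hamster of both groups in turn gave 0.04 to 0.17 for Trpm3 and 0.05 to 0.17 for Trpc5.

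Trpm4 had 35.7 ± 4.24 CPM in SP-HT and 35.8 ± 1.67 CPM in SP-NT, and Trpv2 had 14.2 ± 0.797 CPM in SP-HT and 13.9 ± 1.55 CPM in SP-NT (SD, n = 4 each). The intervals of their log2(FC) ran from -0.19 to 0.19 and from -0.19 to 0.24. The larger of the upper bounds, that of Trpv2, is a 1.18-fold higher level in torpor. Trpm8 had 72, 41, 50 and 49 counts in SP-HT and a log2(FC) of -0.12 (95% interval -0.62 to 0.38), and Trpv4 had 42, 20, 25 and 18 counts and a log2(FC) of 0.17 (95% interval -0.43 to 0.76). Without SP-NT 19 the log2(FC) of Trpm2 was -0.09 and that of Trpv2 0.05. Trpm4 and Trpm8, which had fitted values below 0 in the full comparison, then stood at 0.012 and 0.0055.

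Trpv3, a warmth receptor best known from skin keratinocytes, had the largest fitted difference of the members in the upward direction in edgeR, and the direction turned in DESeq2 with effective lengths, where the log2(FC) was -1.63 (DESeq2 adjusted p = 0.350). Its counts were 8, 10, 14 and 9 in SP-HT and 9, 9, 6 and 8 in SP-NT. The groups overlapped, and the log2(FC) of 0.54 had a 95% interval from -0.17 to 1.24. Trpa1 had a log2(FC) of -0.50 (95% interval -2.68 to 1.69).

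Again 0 of the 10 channels passed the threshold for torpor in edgeR's quasi-likelihood test, with adjusted p from 0.402 to 0.990, whereas 2.40% of 16195 tested genes passed it. Groups of 12.2% of all genes did not overlap, while those of all 10 members did. At an unadjusted p under 0.05 the members counted 0, and 18.4% of all genes passed. In a set of only 10 genes, 0 is close to each of these shares and does not set the channels apart from other genes. DESeq2 and limma-voom called 0 members, and 0 passed without SP-NT 19. With default settings, DESeq2 gave no adjusted p for Trpv1, Trpv3 and Trpa1. The members split into 5 above and 5 below 0, with a median log2(FC) of 0.01 beside -0.00273 over all genes. For 7 members the 95% interval lay within a 2-fold change in either direction, and for Trpv1, Trpv3 and Trpa1 it did not.

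**Figure D3:**
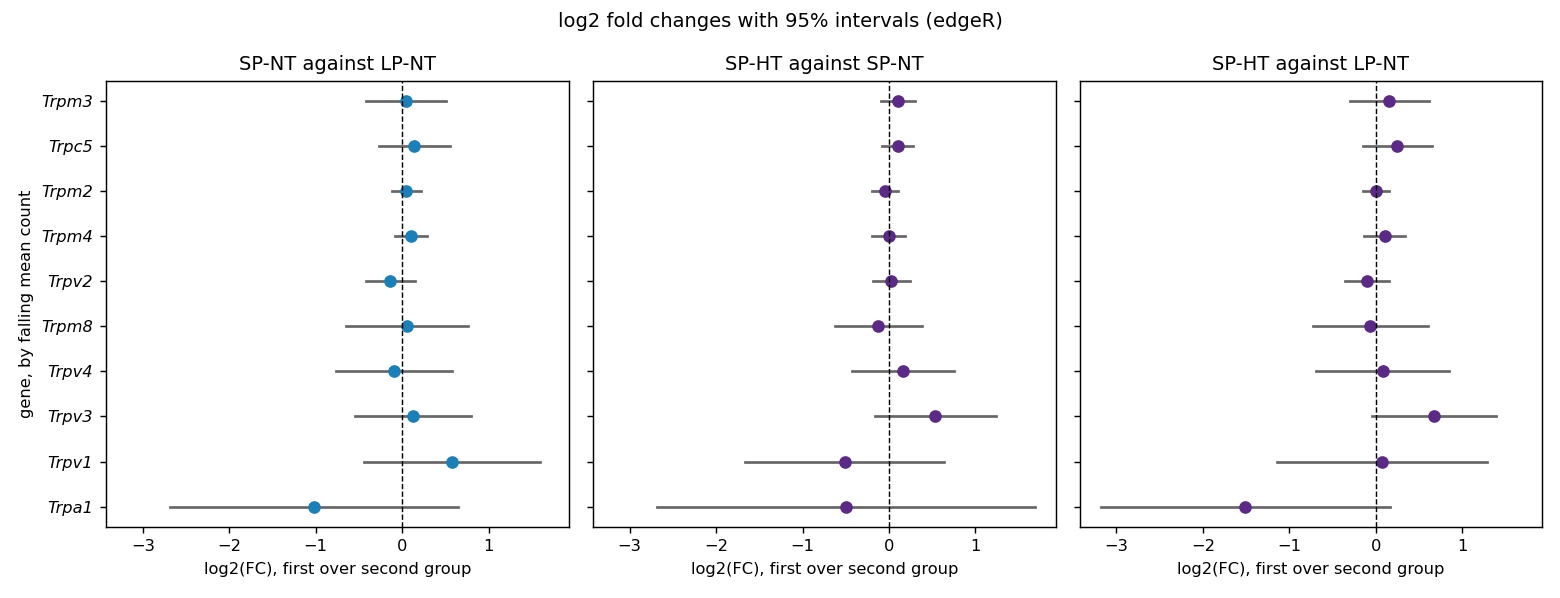
Fitted log2(FC) of each channel with its 95% interval for photoperiod, for torpor and for both combined, from edgeR's quasi-likelihood fit with 4 hamsters per group. All intervals include 0, and those of Trpv1 and Trpa1 are the widest in each comparison.

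SP-HT against LP-NT combined torpor with photoperiod and shared the SP-HT hamsters with the torpor comparison and the LP-NT hamsters with the photoperiodic comparison, which itself shared the SP-NT hamsters with the torpor comparison. It adds no independent hamsters. Trpv3 was the member whose groups did not overlap. It had 7, 6, 7 and 7 counts in LP-NT and 8, 10, 14 and 9 counts in SP-HT, or 0.303 ± 0.0284 and 0.483 ± 0.129 CPM (SD, n = 4 each). The log2(FC) was 0.67 (standard error 0.33, 95% interval -0.05 to 1.39), and the adjusted p was 0.368 in edgeR's quasi-likelihood test. DESeq2 with default settings gave 0.68 with a larger standard error of 0.53. With effective lengths it gave 0.14 with a standard error of 0.66, so that the size of this value depended on the method. Groups without overlap were found in 10.6% of the 16157 genes tested, and 1 of 10 members is close to that share.

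Trpa1 differed in the other direction by its fitted value. In LP-NT its counts were 2, 6, 5 and 2, the hypothermic hamsters had 0, 2, 2 and 1 counts, and SP-NT lay between them with 1, 3, 0 and 4 counts. LP-NT and SP-HT overlapped, and the log2(FC) was -1.51 (standard error 0.76, 95% interval -3.18 to 0.16, edgeR adjusted p = 0.386). In SP-HT 02 and SP-NT 37, where no read was counted, 3 counts would correspond to 0.132 and 0.130 CPM, and this is the level that a count of 0 allows. These limits cover counting error only. The capsaicin receptor Trpv1, which had 4, 2, 3 and 4 counts in LP-NT, 2, 6, 3 and 2 counts in SP-HT and 3, 5, 5 and 8 counts in SP-NT, overlapped in all 3 comparisons. Its log2(FC) was 0.57 for photoperiod, -0.51 for torpor and 0.07 in SP-HT against LP-NT, with 95% intervals of which the narrowest ran from -0.45 to 1.59. The last of these was 0.18 without LP-NT 01.

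For the abundant members SP-HT and LP-NT overlapped throughout. Trpm2 had a log2(FC) of 0.01 (95% interval -0.14 to 0.16), and -0.02 without LP-NT 01. Trpm3 had 0.16 (95% interval -0.30 to 0.61), and Trpc5 had 0.25 (95% interval -0.15 to 0.65). Without LP-NT 01 the latter values became -0.05 (95% interval -0.25 to 0.15) for Trpm3 and 0.07 (95% interval -0.16 to 0.30) for Trpc5. Trpm4 had 0.10 (95% interval -0.13 to 0.34) and Trpv2 -0.10 (95% interval -0.36 to 0.15), which became 0.04 and -0.01 without that hamster. The cold receptor Trpm8 had -0.06 (95% interval -0.72 to 0.60), and -0.0014 without LP-NT 01. Trpv4 had 0.08 (95% interval -0.69 to 0.85) and turned to -0.12 without LP-NT 01.

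In this comparison 0 members passed the threshold in edgeR's quasi-likelihood test, DESeq2 or limma-voom. With all hamsters in edgeR, 0 had an unadjusted p under 0.05, and 0 passed the threshold without LP-NT 01. With default settings, DESeq2 gave no adjusted p for Trpv1 and Trpa1. Over all genes, 1.37% passed the adjusted threshold and 15.1% the unadjusted one, and 0 of 10 members is close to both shares.

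In LP-NT 01, Trpm3 and Trpc5 lay far below their group. Its 52.3 CPM of Trpm3 lay below the 111.5 ± 11.5 CPM of the other LP-NT hamsters (SD, n = 3), a log2 ratio of -1.09. Of the 11852 genes with a mean of at least 100 counts and a finite ratio, 0.962% had a lower ratio in this hamster. Trpc5 had 22.9 CPM against 42.1 ± 6.35 CPM (SD, n = 3), a log2 ratio of -0.88, and 1.86% of genes were lower. Trpv2 was highest of all hamsters in this library, at 17.9 CPM, and Trpm4 lowest, at 28.7 CPM. Trpm2 was near its group, at 34.4 CPM against 37.0 ± 2.02 CPM (SD, n = 3). Among the matched marker records, Pomc was highest of the 12 hamsters in LP-NT 01, at 51.7 CPM against 24.7 to 30.4 CPM in the other LP-NT hamsters, the leptin receptor Lepr was lowest of the 12, at 7.24 CPM against 10.4 to 12.7 CPM, and Avp, at 254 CPM, lay within the LP-NT range from 165 to 266 CPM. Gpr50 and Dio2, markers of tanycytes, also lay within the LP-NT range, at 17.4 CPM (other LP-NT hamsters 16.3 to 18.2) and 7.15 CPM (5.30 to 8.28). The part of these differences in the values of Trpm3 and Trpc5 was not tested.

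Trpm3 and Trpc5 varied together across hamsters. Over the 12 hamsters their log2 CPM had a Pearson's r of 0.949 (permutation p = 0.00052, adjusted p = 0.0052) and a Spearman's rho of 0.860 (permutation p = 0.00066, adjusted p = 0.0066), two-sided and with Benjamini-Hochberg adjustment over the 10 pairs of the 5 members with a mean of at least 100 counts. Without LP-NT 01 and SP-NT 19, the hamsters farthest from the median of Trpm3, r was 0.700. Leaving out LP-NT 01 alone gave an r of 0.766 and a rho of 0.818, and after each group was centred on its mean r was 0.958 over the 12 hamsters. Of the 11852 other genes with a mean of at least 100 counts, 0.565% had an r with Trpm3 at or above that of Trpc5, and 1.54% without LP-NT 01. The values of the pair share the normalization of each library, and 66 genes had a higher r with Trpm3 than Trpc5 had.

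**Figure D4:**
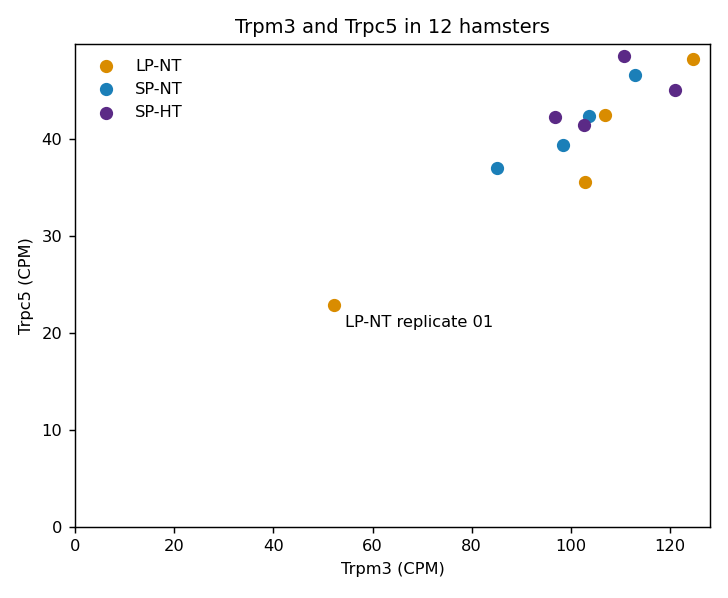
Trpc5 against Trpm3 in CPM, 1 point per hamster and coloured by group. LP-NT 01 lies alone at 52.3 CPM of Trpm3 and 22.9 CPM of Trpc5, and over the other 11 hamsters r of the log2 CPM was 0.766.

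For the other 9 pairs the adjusted permutation p was 0.119 or higher. The largest of them in size were negative and both involved Trpv2, with an r of -0.658 against Trpm3 and of -0.672 against Trpc5 (permutation, adjusted p = 0.119 for each, n = 12). Without LP-NT 01, in which Trpv2 was highest and the other pair lowest, these became -0.263 and -0.311. Trpm2 and Trpm3, both heat-activated members of the melastatin subfamily, had an r of 0.32 (permutation, adjusted p = 0.494), and -0.04 without LP-NT 01.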

How the data were processed

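mRNA was sequenced from the hypothalamus of 12 hamsters, 4 per group. Per the submitters' processing notes, reads were handled with FastQC 0.11.9, Trim Galore 0.6.6, Bowtie 1.3.0 and RSEM 1.3.1. The authors assembled all reads de novo, assigned transcripts to mouse GeneIDs by their best protein hit, and deposited RSEM expected counts (not normalized), TPM and an effective length per GeneID and hamster. A GeneID can join isoforms and paralogs, whose reads cannot be told apart here.

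Expected counts were rounded to whole numbers. Groups were compared pairwise with edgeR 4.0.16 (R 4.3.3, quasi-likelihood test, TMM, genes with at least 10 summed counts, Benjamini-Hochberg adjustment over all genes tested, threshold 0.05). The code was run on simulated data beforehand, with the same dispersion for all genes and changes planted only in genes with a mean of at least 10 counts. That run does not cover genes as scarce as Trpv1, Trpv3 and Trpa1. Directions follow the labels of the samples. The torpor values printed in the study's tables have the opposite sign for all 59 records matched to them, and whether this is the orientation of those tables or of the labels was not tested. A 95% interval is that of the fitted log2(FC) between groups and not of the spread between hamsters. Its width draws in part on the variance of all genes tested. CPM use TMM factors over 12 hamsters, and log2 CPM for correlations a prior count of 2, with 100000 resamples. DESeq2 1.42.0, limma 3.58.1, other filters, sex as a covariate, thinned counts and leaving out each hamster were alternatives.

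All 10 members are named in every comparison. Members and lists were chosen with earlier results of these data known. The files pair no symbols with GeneIDs. Members were found by GeneID, and Avp, Pomc, Gpr50, Dio2 and Lepr by matching DESeq2 values with effective lengths to the study's printed values for indicator genes (59 of 61 matched 1 record each, within 0.0051 in log2(FC) and 6e-04 in adjusted p, the sign in torpor left out), so that those names rest on these same data. Lists of other TRP channels, channel partners and further marker genes, and sequences of the members, were not analysed here.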

Additional observations from a re-analysis of the deposited data

Results flagged for a closer look

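In 2 of the 30 sets of 4 hamsters (10 channels in 3 groups), a single hamster lay farther from the others than the 95% critical value of Dixon's test allows. Chance gives about 1 in 20 such sets. Trpv2 had 11.6 CPM in SP-NT 36, from 278 counts, against 14.5 to 15.0 CPM in the other SP-NT hamsters. Trpv3 had 0.261 CPM in LP-NT 02, from 6 counts, against 0.313 to 0.320 CPM in the other LP-NT hamsters with 7 counts each, so this gap is 1 count. LP-NT 01, in which Trpm3 and Trpc5 were lowest, did not pass this value for either gene.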

How the results depend on the processing

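Under every alternative, 0 channels passed the threshold. The lowest adjusted p over all of them was 0.210, for Trpa1 in SP-HT against LP-NT with limma-voom (unadjusted p = 0.028). In the same comparison, unadjusted p in edgeR was 0.040 for Trpv3 without SP-HT 02 and 0.044 for Trpc5 without LP-NT 05. Some alternatives could not call every channel. The low-count filter of edgeR (filterByExpr) left 7 members to test, without Trpv1, Trpv3 and Trpa1. DESeq2 gave no adjusted p for some of the same 3 genes. Of 500 fitted values of the channels under alternatives, 458 kept their direction and 42 turned it. The cause was not tested, except that leaving out a hamster lowers the number of samples. Values that kept their direction could still move in size in DESeq2 with effective lengths. For photoperiod, log2(FC) was then 1.76 for Trpv3 (0.13 in edgeR) and -0.53 for Trpv4 (-0.09 in edgeR). For torpor, it was -0.22 for Trpm2 (-0.05 in edgeR) and 0.23 for Trpv2 (0.03 in edgeR). For SP-HT against LP-NT, it was 0.14 for Trpv3 (0.67 in edgeR). For photoperiod, log2(FC) turned in DESeq2 with effective lengths for Trpm8 (-0.50) and Trpv1 (-0.38), and in limma-voom for Trpm3 (-0.071). For torpor it turned for Trpm4 with DESeq2 defaults (0.0064), median-of-ratios factors (0.0063), sex as a covariate (0.023) and thinned counts (0.013), and in DESeq2 with effective lengths for Trpv1 (0.39) and Trpv3 (-1.63). For SP-HT against LP-NT it turned in DESeq2 with effective lengths for Trpm2 (-0.036), Trpv2 (0.087) and Trpv4 (-0.29), in limma-voom for Trpm2 (-0.024), Trpm8 (0.17) and Trpv4 (-0.10), and with sex as a covariate for Trpv1 (-0.060). Leaving out each hamster in turn gave, for photoperiod, log2(FC) from -0.16 to 0.19 for Trpm3, -0.032 to 0.29 for Trpc5, -0.19 to 0.25 for Trpm8 and -0.29 to 0.21 for Trpv4. For torpor it gave -0.11 to 0.29 for Trpv4, -0.050 to 0.060 for Trpm4, -0.050 to 0.067 for Trpv2, -0.27 to 0.0055 for Trpm8 and -0.088 to 0.0019 for Trpm2. For SP-HT against LP-NT it gave -0.018 to 0.044 for Trpm2, -0.048 to 0.30 for Trpm3, -0.19 to 0.39 for Trpv4, -0.42 to 0.28 for Trpv1 and -0.31 to 0.14 for Trpm8. Over all genes, 6 were called for photoperiod (33 in DESeq2, 32 with effective lengths, 5 to 8 without each hamster), 389 for torpor (1017, 759, 242 with sex, 104 to 318) and 221 for SP-HT against LP-NT (706, 623, 416 in limma-voom, 612 with all 12 samples in a single fit, 55 to 200). Depth limits Trpv1, Trpv3 and Trpa1, whose means stayed below 10 counts. Correlations with levels of marker lists were not run, because fewer than 3 genes of each list could be named. No paired analysis was possible, because each hamster was sampled in 1 group only.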
